A study of Mus musculus with 4 samples.

Results

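The remote myocardium described here is the heart muscle that lay away from the infarct in sections of infarcted mouse hearts, set against the whole of 1 uninjured control section. Its spots were selected on a measured value, the cardiomyocyte share, which is the part of a spot's UMIs outside mitochondrially encoded genes that came from 12 cardiomyocyte genes (Myh6, Tnnt2, Tnni3, Actc1, Myl2, Myl3, Pln, Mb, Ckm, Tcap, Ryr2 and Ttn). Spots with a share under 0.5 times the 90th percentile of their section were low, and where such spots touched in patches of 10 or more they made up the infarct zone (IZ). Remote spots were not low and lay more than 4 grid steps from the IZ. They numbered 392 of 1753 kept spots at 3 days post-infarction (3 dpi), 201 of 1567 in the female-labelled 5 dpi section and 533 of 1423 in the male-labelled one, together 1126 of the 5909 kept spots of the series. The control section gave 1166 spots.

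Visium arrays capture polyadenylated RNA from a frozen section on a grid of barcoded spots, each of which can hold several cells. The hearts came from Collagen1a1-GFP+ mice aged 8 to 12 weeks, in which a collagen promoter drives GFP in fibroblasts and which the control carried too. The control heart had no infarct, and the other 3 hearts had a myocardial infarction by ligation of the left anterior descending coronary artery. There was 1 section per heart, with the control, 3 dpi and 1 of the 5 dpi sections labelled female and the other 5 dpi section labelled male, and Y-linked genes gave 77 UMIs in the remote zone of the female-labelled section and 0 in the other 3 groups, so female-labelled and male-labelled are used below as names and not as sexes; values follow the order 3 dpi, female-labelled, male-labelled.

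After an infarct the surviving muscle carries the load of the lost segment. Cardiomyocytes under wall stress are known to raise natriuretic peptides and fetal isoforms of contractile proteins, and to turn from fatty acid oxidation towards other fuels. Fibroblasts and macrophages gather in and around the scar, and remote myocardium is known for milder interstitial matrix deposition.

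**Figure D1:**
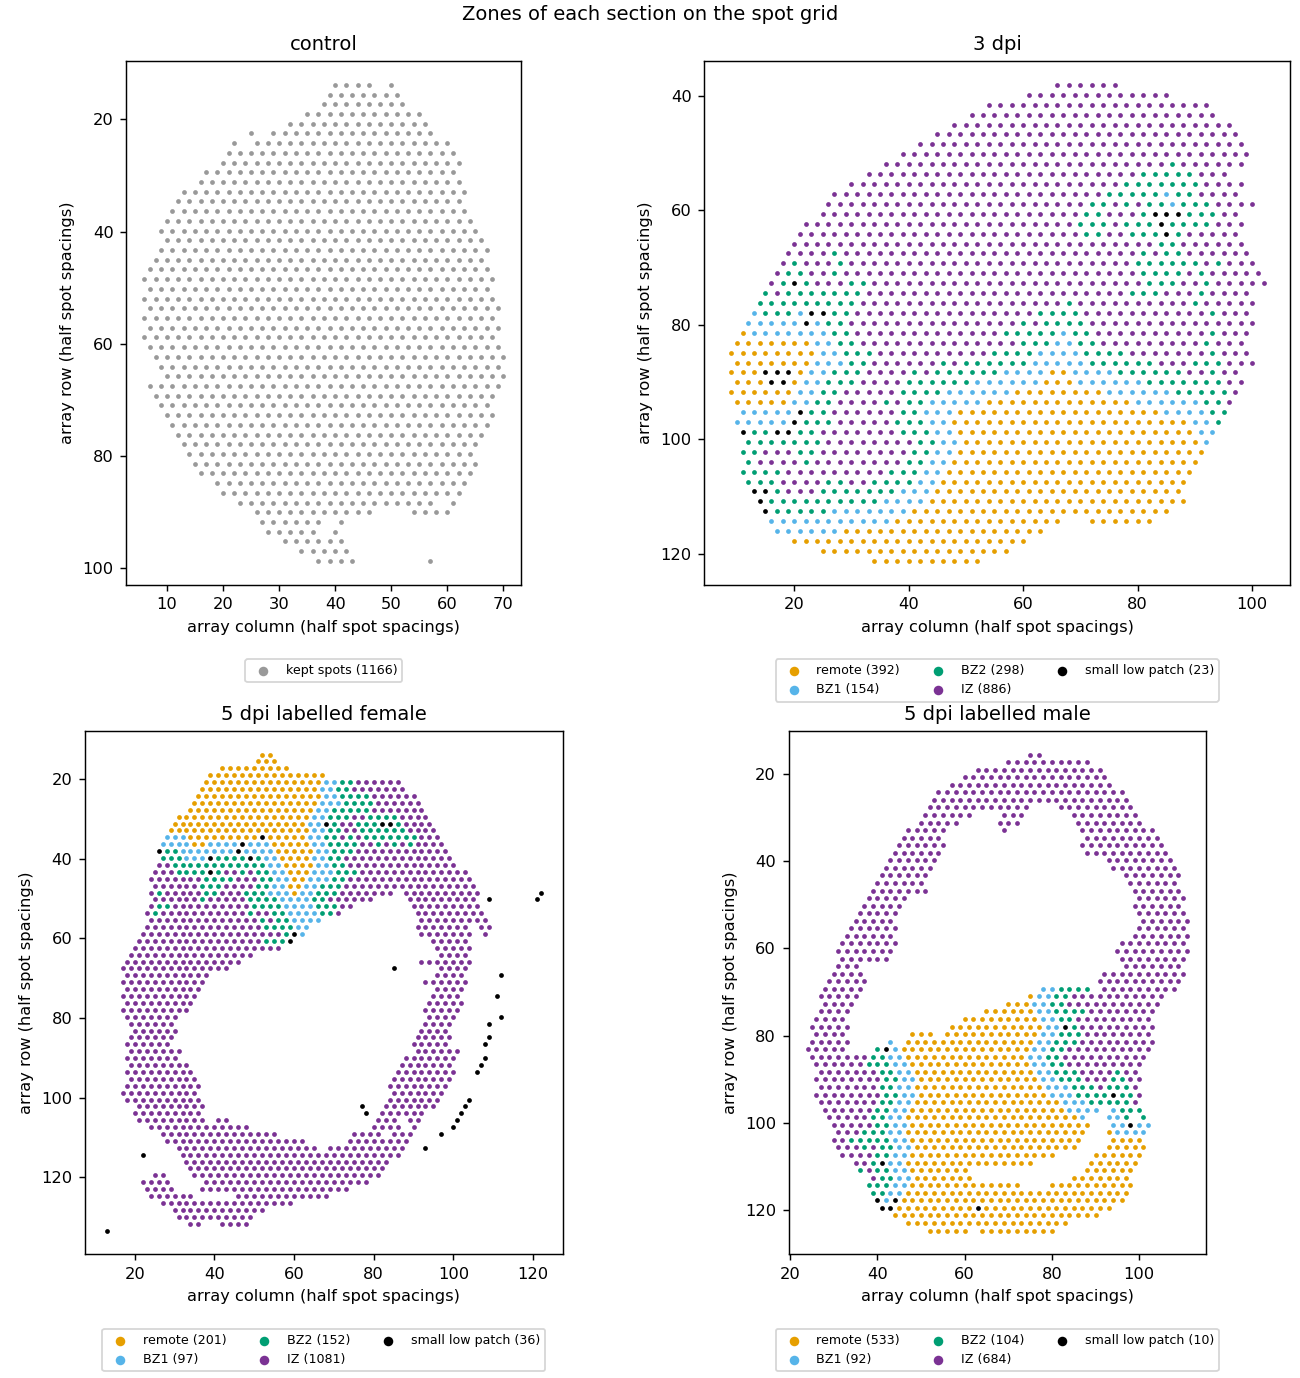
Kept spots of the 4 sections at their array column and row, both in units of 0.5 spot spacings, coloured by zone: IZ, the border zones within 2 steps (BZ2) and at 3 to 4 steps (BZ1), the remote zone, and low spots in patches too small for the IZ. The remote zone holds 392, 201 and 533 spots in the infarcted sections, and the 5 dpi sections enclose a gap that the control section lacks.

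The remote zones held 1353478, 856404 and 2482199 UMIs outside mitochondrially encoded genes, and the control held 3800029. Levels are CPM, the count scaled to 1e6 of these UMIs, and 3 UMIs, the floor set for a count of 0, correspond to 2.22, 3.50, 1.21 and 0.789 CPM in the same order. A remote spot held a median of 2912.5, 4048 and 4348 such UMIs, against 2965.5 in the control. At the threshold of distance, spots 4 steps from the IZ, just outside, had a median cardiomyocyte share of 8.96% (75 spots), 7.16% (48) and 7.46% (47), and spots 5 steps away, just inside, 9.44% (68), 8.70% (39) and 7.43% (49). At the threshold of share, the lowest remote spots were at 5.57%, 4.76% and 4.73%, and the highest low spots outside the IZ at 5.20%, 4.26% and 4.62%. With 1 control section no test between the conditions is possible, so sizes and the number of sections with a direction are given, the 3 comparisons share the same control, and intervals cover counting error only. Fewer cells of a type and less RNA per cell cannot be told apart in such sums, and neither can infarction and the plane of the section.

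The label of myocardium was checked on cardiomyocyte markers that the rule did not use. The 20 markers summed to 63796 CPM in the control and to 58752, 57058 and 56718 CPM in the remote zones, and 4 were higher and 9 lower in 3 of 3, 0 of them by 2-fold. The ventricular origin was checked on atrial genes, of which Myl7 and Sln, a myosin light chain and a calcium pump regulator of the atrium, had 0 UMIs in the control and in the 3 remote zones. The 7 atrial genes summed to 22.6 CPM in the control and 15.7 to 28.0 CPM in the remote zones. Erythroid RNA moved with the section: its 6 genes summed to 8607 CPM in the control, and to 6911, 33282 and 15458 CPM in the remote zones, and its part in the results was not tested.

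The 5016 genes described had a mean of at least 20 CPM over the control and the 3 remote zones. Rule genes and mitochondrially encoded genes were left out of them. Of the 5016, 158 were at least 2-fold higher in 3 of 3 remote zones (3.15%) and 5 at least 2-fold lower (0.0997%). At any size 1874 were higher in 3 of 3 (37.4%) and 1028 lower (20.5%). Scaled by TMM, which shifts the median log2 ratio by −0.18, −0.22 and −0.08, the split at any size was 1246 higher and 1744 lower of 5010 genes described, and by median-of-ratios scaling 1325 and 1658 of 5011. Over all UMIs it was 1493 and 490 of the 3512 genes that then reached the mean limit. The median gene had a log2 ratio of 0.13 at 3 dpi, 0.12 in the female-labelled section and 0.05 in the male-labelled section, which is the level against which the lists are read. As 3 of the 4 values in the mean are remote ones, a gene low in the control can be described through the remote zones alone, so for lists with members under 20 CPM in the control the counts at or above it there are added where the list was mostly higher. In the remote zones taken singly, 229, 402 and 270 genes were at least 2-fold higher and 22, 86 and 77 at least 2-fold lower. Each group was also divided into 4 quadrants of equal spot number, and for 105 of the 158 higher genes the lowest of 12 remote quadrants was above the highest of the 4 control quadrants, as the highest was below the lowest for 5 of the 5 lower genes. Over all 5016 genes described these counts were 217 (4.33%) and 131 (2.61%), and the called genes were chosen on the same values, so their own counts are a description.

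**Figure D2:**
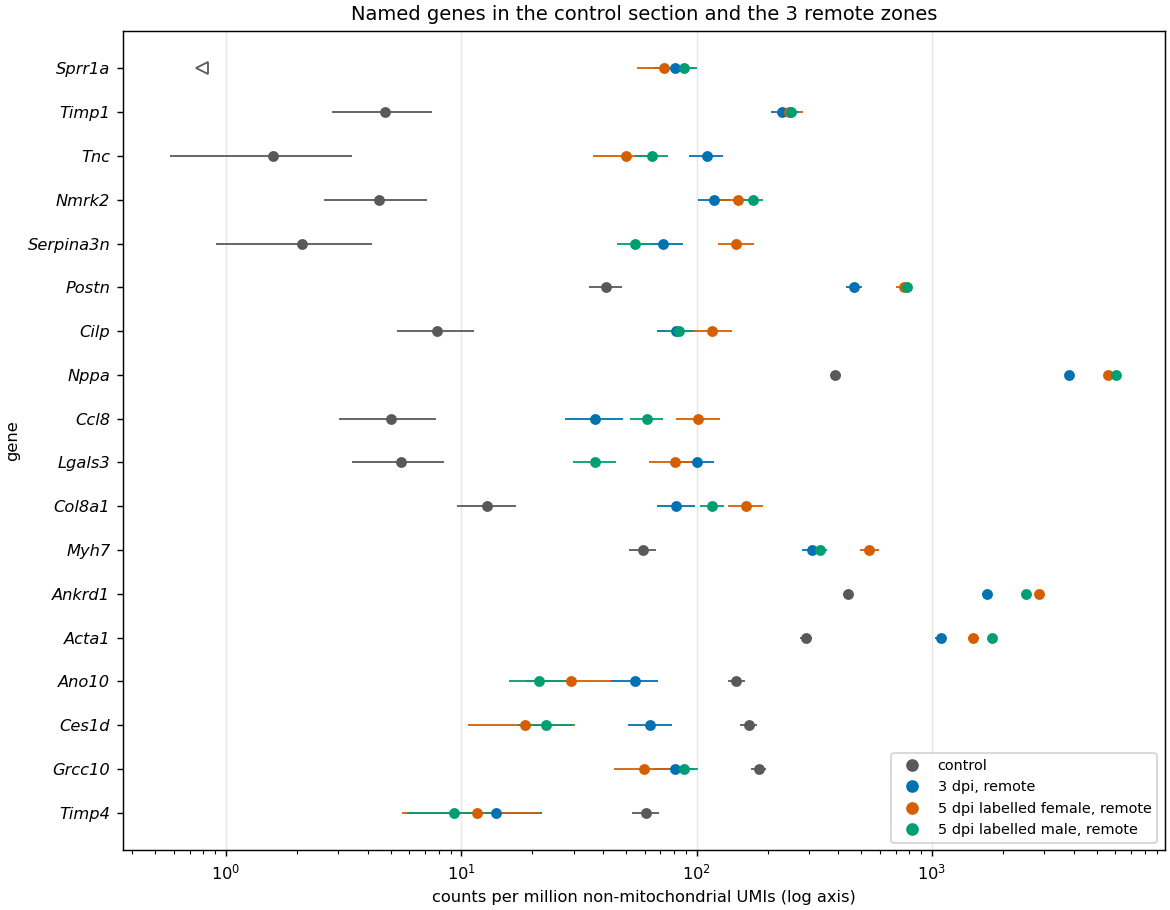
Level of the named genes, with Ankrd1, Acta1 and Timp4, in the control and the 3 remote zones, in CPM on a log axis. Points are sums over a zone, bars are exact 95% Poisson intervals, and the open triangle is the 3-count floor of the control for Sprr1a. Nppa lies at 389 CPM in the control and at 3803, 5597 and 6026 CPM in the remote zones, and the 4 lower genes lie below the control in each zone.

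Wall stress and fetal genes were higher across the remote zones. Of 26 listed genes 23 were described, 20 were higher in 3 of 3 zones, 0 were lower and 9 were at least 2-fold higher. Of the 20 members at 20 CPM or more in the control 17 were higher and 6 at least 2-fold, and of the 3 below the mean limit 0 were higher and 1 lower. The median log2 ratio was 0.95 at 3 dpi, 1.21 in the female-labelled section and 0.91 in the male-labelled section. Their summed level was 7690 CPM in the control and 16642, 24168 and 22164 CPM in the remote zones.

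Nppa, the atrial natriuretic peptide, was at 389 CPM in the control, and 3803, 5597 and 6026 CPM in the remote zones. Nppa was thus 9.78-fold (95% counting interval 9.23 to 10.4), 14.4-fold (13.6 to 15.3) and 15.5-fold (14.7 to 16.4) higher, yet it was uneven within zones: quadrants ran from 1356 to 7234 CPM at 3 dpi, 1828 to 8066 CPM in the female-labelled section and 548 to 9690 CPM in the male-labelled section, against 230 to 597 CPM in the control. The lowest quadrant of the male-labelled section lay within the control range. Nppb, the B-type natriuretic peptide, did not go 1 way, at 227 CPM in the control and 231, 175 and 197 CPM in the remote zones.

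Myh7, the slow myosin heavy chain of fetal ventricle, was at 58.9 CPM in the control and 310, 541 and 334 CPM in the remote zones, 5.26-fold, 9.17-fold and 5.66-fold higher. Ankrd1, a titin-associated protein induced by stretch, went from 440 CPM to 1705, 2857 and 2502 CPM, 3.88-fold, 6.50-fold and 5.69-fold higher. Acta1, skeletal alpha-actin, went from 292 CPM to 1088, 1497 and 1794 CPM. Each control value lay below the 3 remote values. Sprr1a, a small proline-rich protein of stressed cells, had 0 UMIs in the control and 80.5, 72.4 and 88.2 CPM in the remote zones, at least 102-fold, at least 91.7-fold and at least 112-fold higher against the floor of 3 counts in the control library. Nmrk2, a kinase that makes NAD from nicotinamide riboside in muscle, was at 4.47 CPM in the control and 119, 149 and 173 CPM in the remote zones, 26.6-fold, 33.4-fold and 38.7-fold higher. Clu, the secreted chaperone clusterin, went from 518 CPM to 1624, 2681 and 2109 CPM, and Rcan1, a target and brake of calcineurin, from 81.6 CPM to 181, 229 and 205 CPM.

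The promoters of Ankrd1, Acta1, Myh7 and Nppa are shown as examples from the 9 wall stress genes at least 2-fold higher in 3 of 3 remote zones, picked with their values known. They run from 250 bases before the start to 50 after it, are taken from RefSeq on GRCm38.p6 and are written along the strand of the gene. Capitals mark the M-CAT element, searched as CATTCC and as GGAATG for the other strand, which TEAD factors are known to bind.
Ankrd1 (chr19:36119795-36120094, minus strand): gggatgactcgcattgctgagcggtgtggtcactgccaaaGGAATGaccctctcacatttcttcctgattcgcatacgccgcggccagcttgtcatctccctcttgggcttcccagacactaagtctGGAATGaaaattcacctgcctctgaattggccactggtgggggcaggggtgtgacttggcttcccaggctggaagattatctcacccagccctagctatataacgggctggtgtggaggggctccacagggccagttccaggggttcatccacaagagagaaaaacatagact
Acta1 (chr8:123894726-123895025, minus strand): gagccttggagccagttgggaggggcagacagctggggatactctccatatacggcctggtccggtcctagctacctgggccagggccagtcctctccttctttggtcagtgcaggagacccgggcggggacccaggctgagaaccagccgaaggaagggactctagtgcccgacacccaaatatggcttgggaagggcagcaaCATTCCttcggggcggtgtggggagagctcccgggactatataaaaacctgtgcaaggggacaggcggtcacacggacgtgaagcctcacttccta
Myh7 (chr14:54994577-54994876, minus strand): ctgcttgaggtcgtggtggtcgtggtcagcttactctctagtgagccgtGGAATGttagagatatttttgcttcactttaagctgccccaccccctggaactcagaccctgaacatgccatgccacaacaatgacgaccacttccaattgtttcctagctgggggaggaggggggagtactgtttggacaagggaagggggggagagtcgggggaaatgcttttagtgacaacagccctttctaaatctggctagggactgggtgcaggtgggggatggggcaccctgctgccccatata
Nppa (chr4:148000472-148000771, plus strand): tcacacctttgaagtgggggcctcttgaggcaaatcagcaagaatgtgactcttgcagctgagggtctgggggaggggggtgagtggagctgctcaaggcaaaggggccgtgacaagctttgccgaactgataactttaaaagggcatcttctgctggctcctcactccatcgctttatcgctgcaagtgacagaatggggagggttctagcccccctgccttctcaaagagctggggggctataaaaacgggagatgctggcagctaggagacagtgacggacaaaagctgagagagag
The letters occur at 2 places in the Ankrd1 window, 1 each in the Acta1 and Myh7 windows and 0 in the Nppa window. Of 27025 promoters of this length 14.6% hold them, so a match is a description of the sequence alone.

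Fibroblast activation and matrix genes were higher in the remote zones. Of 19 activated fibroblast genes 14 were described, 13 were higher in 3 of 3 zones and 12 at least 2-fold. Only 5 of the 14 reached 20 CPM in the control, of which 4 were higher and 3 at least 2-fold, and of the 5 below the mean limit 4 were higher. Fap, fibroblast activation protein, was the other, at 6.05 CPM in the control and at 8.87, 7.01 and 4.83 CPM in the remote zones. Timp1, an inhibitor of metalloproteinases, was at 4.74 CPM in the control and at 231, 248 and 251 CPM in the remote zones, 48.8-fold, 52.3-fold and 52.9-fold higher. Tnc, the matrix protein tenascin C, went from 1.58 CPM to 110, 50.2 and 64.5 CPM, 69.7-fold, 31.8-fold and 40.8-fold higher. Postn, periostin of activated fibroblasts, went from 41.1 CPM to 466, 762 and 782 CPM, and Cilp, a matrix protein of cartilage and heart, from 7.89 CPM to 82.0, 116 and 84.2 CPM. For Timp1, Tnc, Postn and Cilp the 3 remote values lay above the control, and the quadrants did not overlap either.

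Of 29 fibrillar and network matrix genes 27 were described, 23 were higher in 3 of 3 and 12 at least 2-fold (20 and 9 of the 24 at 20 CPM or more in the control, and 2 higher of the 2 below the mean limit), with 0 lower and medians of 0.95, 1.46 and 1.16. Col8a1, a network collagen, was at 12.9 CPM in the control and 82.0, 161 and 116 CPM in the remote zones. Col1a1, a chain of type I collagen, was at 90.5 CPM and at 554, 683 and 390 CPM, and Fn1, fibronectin, at 47.6 CPM and at 214, 278 and 293 CPM. Resting fibroblast genes did not go 1 way, with 5 of 13 higher, 4 lower and medians of 0.06, 0.01 and −0.05. Gsn, the actin-severing protein gelsolin, was at 1622 CPM in the control and at 1023, 938 and 578 CPM in the remote zones, while Mfap5, a microfibril protein, was at 66.8 CPM and at 170, 388 and 392 CPM.

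Macrophage markers were higher in 3 of 3 zones for 13 of 13 described, 4 of them at least 2-fold (9 and 2 of the 9 at 20 CPM or more in the control, and 2 higher of the 2 below the mean limit), with medians of 0.87, 1.14 and 0.96 and a summed level of 1128 CPM in the control and 2077, 2403 and 1995 CPM in the remote zones. C1qb, a chain of complement C1q made by macrophages, was at 154 CPM and at 346, 356 and 330 CPM. Of the 6 described genes of recruited monocytes and lipid macrophages 5 were at least 2-fold higher, although 1 of the 6 reached 20 CPM in the control and it was not among the 5. They include Lgals3, galectin 3, at 5.53 CPM in the control and 100.5, 80.6 and 37.1 CPM in the remote zones. Ccl8, a monocyte chemokine, was at 5.00 CPM and at 36.9, 102 and 61.6 CPM. Serpina3n, an acute-phase protease inhibitor, was at 2.11 CPM and at 71.7, 147 and 54.4 CPM. Neutrophil markers summed to 16.8 CPM in the control and to 26.6, 70.1 and 26.2 CPM, and lymphocyte markers to 7.37 CPM and 5.17, 7.01 and 7.25 CPM, with Cxcr2 and Cd3e at 0 UMIs in the control and the 3 remote zones.

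Interferon-induced genes had smaller ratios: 9 of 15 were higher in 3 of 3, 0 were at least 2-fold higher and the medians were 0.52, 0.43 and 0.38. At 20 CPM or more in the control 7 of 11 were higher, and below the mean limit 3 of 10. Irf7, a transcription factor of the interferon response, was at 19.5 CPM in the control and at 65.8, 38.5 and 41.5 CPM in the remote zones. Beyond 8 steps from the IZ the mean of the list medians turned to −0.047. Class I and class II histocompatibility genes were higher in 5 of 9 (4 of the 8 at 20 CPM or more in the control), with a mean of the list medians of −0.0875 beyond 8 steps, and Cd74, the class II invariant chain, did not go 1 way, at 250.3 CPM in the control and 154, 355 and 151 CPM. Of 10 cycling genes 6 were described and at least 2-fold higher, but 1 of these, Tubb5, reached 20 CPM in the control, at 144 CPM there and 352, 464 and 452 CPM in the remote zones, and the others were under it there. The 4 below the limit were higher in 3 of 3 too, and Mki67, the Ki-67 protein of dividing cells, was at 3.42 CPM and at 17.7, 33.9 and 57.6 CPM. Endothelial and mural genes did not go 1 way as lists, with 2 of 16 and 4 of 10 higher and 4 of 16 and 3 of 10 lower.

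**Figure D3:**
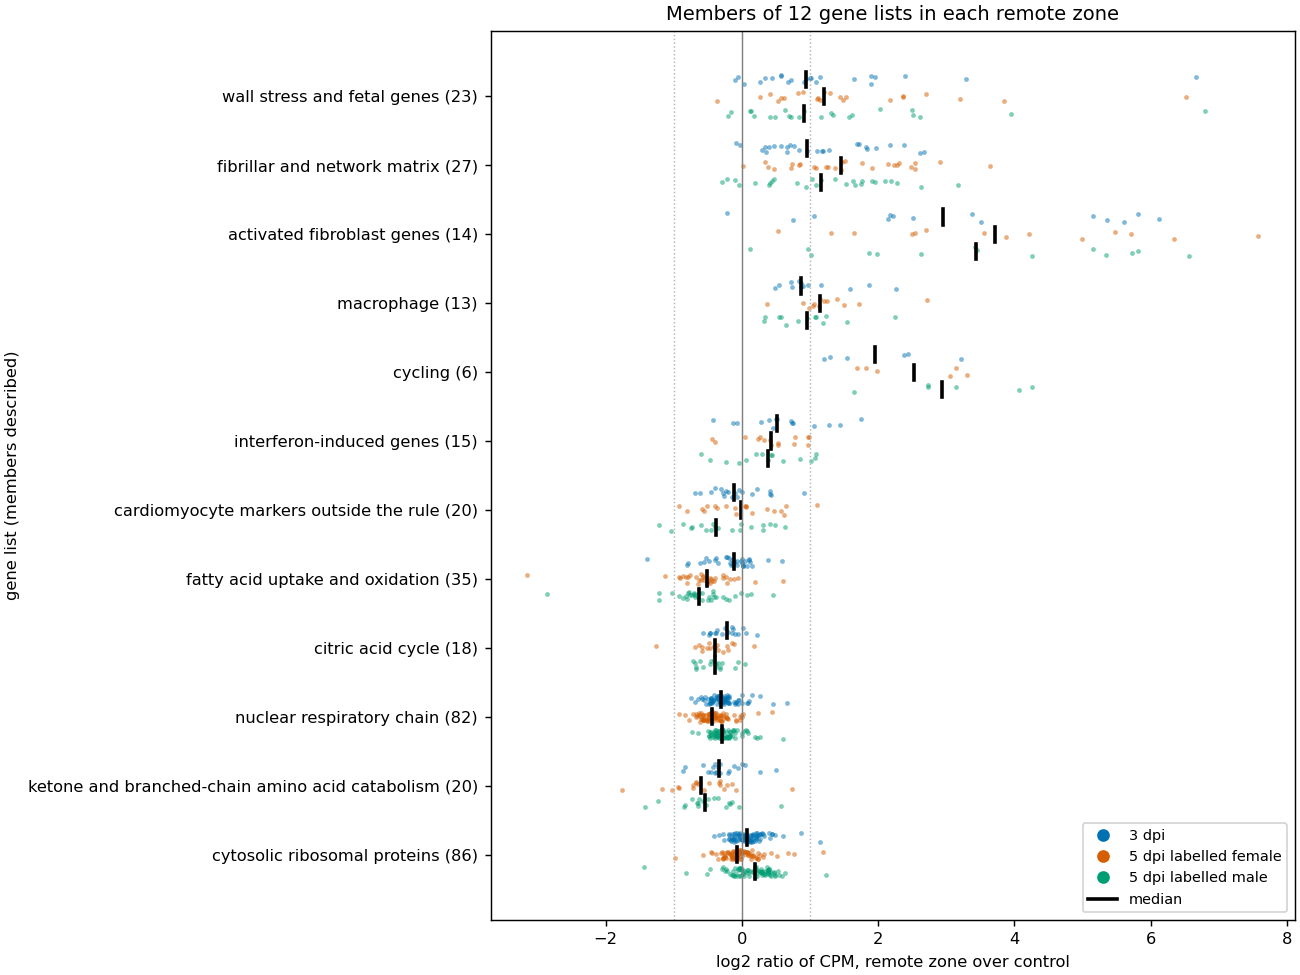
Log2 ratio of CPM of each described member of 12 gene lists, remote zone over control, in the 3 infarcted sections. Each point is a gene, black bars are list medians and dotted lines mark 2-fold. Stress, matrix, fibroblast, macrophage and cycling members lie mostly to the right, and members of the lists of energy metabolism mostly to the left by less than 2-fold.

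Genes of oxidative metabolism were lower, by small ratios. Cardiomyocyte markers outside the rule had medians of −0.12, −0.016 and −0.37 in the same zones with 9 of 20 lower, and the median cardiomyocyte share of a spot was 10.2% in the control and 10.3%, 9.22% and 8.41% in the remote zones, and their part in the metabolic ratios was not tested. The nuclear genes of the respiratory chain, which couples electron transport to ATP synthesis in mitochondria, were lower in 3 of 3 zones for 66 of 82 described and higher for 1, with 0 at 2-fold and medians of −0.31, −0.44 and −0.29. Cox7a1, a heart and muscle subunit of cytochrome c oxidase, was at 6451 CPM in the control and at 4025, 3390 and 3887 CPM in the remote zones, and Ndufb4, a complex I subunit, at 1609 CPM and at 959, 942 and 1149 CPM. The member higher in 3 of 3 was Cox6a1, the cytochrome c oxidase subunit of non-muscle tissue, at 355 CPM and at 488, 483 and 538 CPM. The 82 count Ensembl identifiers, as a symbol can have more than 1.

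Fatty acid genes were lower in 20 of 35 described, with medians of −0.12, −0.51 and −0.63, and 1 of the 20, Ces1d, was at least 2-fold lower. The 1 higher in 3 of 3 was Dgat1, of triglyceride synthesis, at 17.6 CPM in the control and at 26.6, 26.9 and 18.5 CPM in the remote zones, which did not go 1 way with TMM scaling, and of the 9 below the mean limit 2 were lower and 0 higher. Acadm, the medium-chain acyl-CoA dehydrogenase, was at 748 CPM in the control and at 429, 424 and 427 CPM in the remote zones, 0.574-fold (interval 0.524 to 0.627), 0.566-fold (0.506 to 0.632) and 0.571-fold (0.531 to 0.613) of the control. Hadhb, a subunit of the trifunctional protein of beta-oxidation, was at 1376 CPM and at 986, 796 and 803 CPM. Citric acid cycle genes were lower in 14 of 18 and higher in 0, with medians of −0.22, −0.40 and −0.39, and Idh2, the mitochondrial isocitrate dehydrogenase, was at 1862 CPM and at 1452, 1239 and 1214 CPM. Genes for the breakdown of ketones and branched-chain amino acids were lower in 17 of 20 and higher in 1, with medians of −0.33, −0.60 and −0.55. Aldh6a1, of valine breakdown, was at 102 CPM and at 56.2, 45.5 and 57.6 CPM, and the member higher in 3 of 3, the ketone body enzyme Bdh1, at 30.8 CPM and at 43.6, 51.4 and 45.9 CPM.

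Glycolysis as a list did not go 1 way, with 10 of 25 higher and 8 lower. The lactate dehydrogenase subunits went opposite ways: Ldha was at 959 CPM in the control and at 1420, 1310 and 1466 CPM in the remote zones, and Ldhb, the heart subunit, at 2103 CPM and at 1544, 1205 and 1327 CPM. Pfkp, the platelet form of phosphofructokinase, was at 50.3 CPM and at 109, 134 and 135 CPM. The mitochondrially encoded share of UMIs did not go 1 way: it was 40.3% in the control, 38.5% at 3 dpi, 43.6% in the female-labelled section and 27.5% in the male-labelled section.

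The 5 genes at least 2-fold lower are given in full. Ces1d, a lipid hydrolase of the fatty acid list, was at 166 CPM in the control and at 63.5, 18.7 and 22.96 CPM in the remote zones, 2.61-fold, 8.89-fold and 7.23-fold higher in the control. Ano10, a member of the anoctamin family, was at 147 CPM and at 54.7, 29.2 and 21.4 CPM. Grcc10 was at 184 CPM and at 80.5, 59.6 and 88.6 CPM. Timp4, the metalloproteinase inhibitor of the heart, was at 60.8 CPM and at 14.0, 11.7 and 9.27 CPM, opposite in direction to Timp1. Ift81, of intraflagellar transport, was at 52.9 CPM and at 21.4, 14.0 and 22.96 CPM. Timp4 and Ift81 had a mean under 50 CPM, below the limit for named genes, and were named after their values were seen.

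Genes of excitation did not go 1 way as lists. Of 14 described channel and connexin genes 6 were higher in 3 of 3 and 3 lower. These shares were near those of all genes described (37.4% and 20.5%). Where the control itself reached 20 CPM, 4 of 12 such genes were higher and 3 lower. Among the 12 below the mean limit 0 were higher and 5 lower. The likeness to all genes therefore covers the 14 described members and not the whole list. Of 21 described calcium cycling genes 6 were higher and 6 lower. Kcnq1, a delayed rectifier potassium channel, was at 42.1 CPM in the control and at 69.5, 63.1 and 68.9 CPM in the remote zones, and Slc8a1, the sodium-calcium exchanger, at 178 CPM and at 239, 344 and 219 CPM. Among the lower genes Kcnip2, a subunit of the transient outward current, was at 145 CPM in the control and at 92.4, 42.0 and 57.6 CPM in the remote zones, and Abcc9, the regulator of the ATP-sensitive potassium channel, at 126 CPM and at 77.6, 64.2 and 45.1 CPM. Kcnj3, an acetylcholine-activated potassium channel, was at 35.3 CPM and at 20.7, 16.3 and 13.3 CPM. Atp2a2, the calcium pump of the sarcoplasmic reticulum, was at 8333 CPM and at 6981, 5837 and 4571 CPM.

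**Figure D4:**
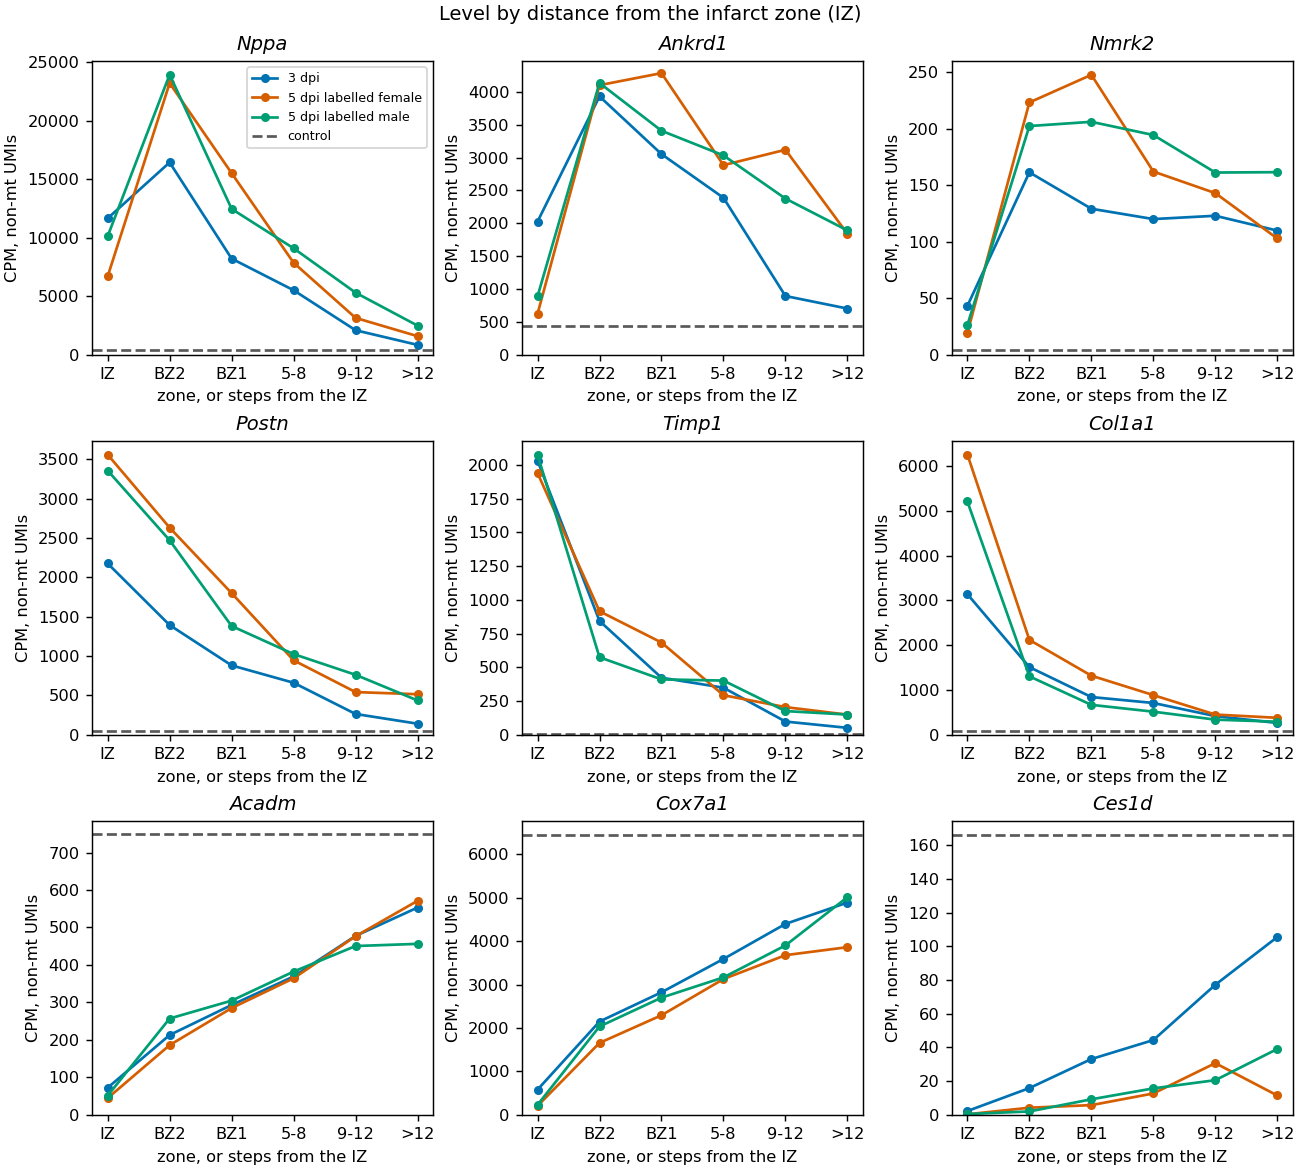
Level of 9 genes in CPM in the IZ, the border zones BZ2 and BZ1 and the remote zone at 5 to 8, 9 to 12 and over 12 steps from the IZ, for each infarcted section, with the control as a dashed line. Nppa goes from 5505 to 832 CPM across the remote zone at 3 dpi, and Acadm and Cox7a1 stay under the control at each distance.

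Levels differed across the remote zone with distance from the IZ, itself the measure that bounds the zone. The remote zones held 221, 115 and 56 spots at 5 to 8, 9 to 12 and over 12 steps at 3 dpi, 120, 59 and 22 in the female-labelled section and 206, 205 and 122 in the male-labelled section. Of the 158 higher genes, 150, 146 and 144 were lower over 12 steps than at 5 to 8 steps in the 3 sections, against 60.1%, 61.6% and 62.4% of all genes described. The genes were called on zones that hold many of the spots at 5 to 8 steps, so the comparison is a description. Over 12 steps 137, 132 and 155 of the 158 were above the control, and 61, 95 and 116 at least 2-fold above it. The same counts over all genes described were not taken, and the 158 were called on sums that hold these spots. These counts are therefore a description too. With the whole remote zone begun beyond 8 steps 59 genes were at least 2-fold higher in 3 of 3, of which 56 were among the 158, and 3 were lower.

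Nppa went from 5505 to 2084 and 832 CPM at 3 dpi over these distances, from 7858 to 3138 and 1576 CPM in the female-labelled section and from 9092 to 5298 and 2478 CPM in the male-labelled section, above the 389 CPM of the control at each. Postn went from 660 to 263 and 139 CPM, from 945 to 541 and 514 CPM, and from 1024 to 761 and 435 CPM. Nmrk2 was flatter, at 120, 123 and 110 CPM at 3 dpi, at 162, 143 and 103 CPM in the female-labelled section, and at 194, 161 and 161 CPM in the male-labelled section. Acadm was higher with distance, at 369, 477 and 553 CPM, at 364, 477 and 571 CPM, and at 382, 450.3 and 456 CPM, and stayed under the 748 CPM of the control. Sprr1a had 0 UMIs over 12 steps in the female-labelled section. Other measures moved with distance too: the share of the 12 rule genes was 9.27%, 10.5% and 10.7% at 3 dpi, 8.58%, 9.61% and 9.85% in the female-labelled section and 7.57%, 8.23% and 9.05% in the male-labelled section. Erythroid genes summed to 4683, 7826 and 12771 CPM, to 28307, 31146 and 67443 CPM, and to 13375, 14689 and 20166 CPM in the same order, and the part of either in these levels was not tested.

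The remote level was also set against the IZ of the same section. Of the 158 higher genes 140 were higher in the IZ than in the remote zone in 3 of 3 sections, and the median remote level was 31.9%, 35.1% and 29.9% of the IZ level. The same count and medians over all genes described were not taken, so whether the 158 differ from other genes in this is not shown. Timp1 was at 11.4%, 12.8% and 12.1% of its IZ level, and Sprr1a at 9.16%, 10.2% and 5.60%. Mybpc2, Nmrk2, Rrad, Acta1, Myh7 and Tnfrsf12a, 6 genes, were higher in the remote zone in 3 of 3, with Nmrk2 at 276%, 773% and 660% and Myh7 at 192%, 467% and 325% of the IZ level. The IZ was itself defined by low cardiomyocyte share, so such ratios of muscle genes are a description. For comparison, the 20 cardiomyocyte markers outside the rule summed to 321%, 724% and 627% of their IZ level. The 8 infarct-restricted genes summed to 13.4 CPM in the control and to 167, 102 and 74.9 CPM in the remote zones, the latter 3.65%, 2.07% and 1.97% of the IZ level. With the IZ profile subtracted at these shares, an alternative chosen after seeing the data, 121 genes were at least 2-fold higher, 120 of them among the 158, and 5 lower.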

How the data were processed

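For each spot the authors deposited unnormalized UMI counts of 21885 genes from Space Ranger 1.3.1. The submitters' processing notes name build mm10, while the methods describe an Ensembl-based reference with GFP added, and the files hold no coordinates. Marked spots with at least 500 UMIs were kept and zoned as described above, with distance in steps of the hexagonal grid. UMIs were summed per zone and divided by UMIs outside the 13 mitochondrially encoded genes. A count of 0 was set to 3 counts. Genes were called at 2-fold or more in 3 of 3 sections. Named genes were the 12 with the largest and the 12 with the smallest nearest-section log2 ratio among called genes with a mean of at least 50 CPM (3 lower genes qualified), up to 4 examples per list, and members needed to show values that did not go 1 way. Members, the 27 gene lists and 15 marker lists were chosen with earlier results of these data known. Calculations used edgeR 4.0.16 (R 4.3.3) for TMM and otherwise pandas 2.3.3, NumPy 2.4.6 and SciPy 1.17.1 in Python 3.11.15, and were tested on simulated data. The effect of 18 alternatives, and of 1 added after the data were seen, is given at the end, and some items are not reported here.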

Additional observations from a re-analysis of the deposited data

Results flagged for a closer look

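For 5 gene lists the median log2 ratio had 1 sign at 3 dpi and the other in both 5 dpi sections, a difference that was not tested and that rests on 1 section at 3 dpi. Heart-secreted factors were at 0.33 at 3 dpi, −0.16 in the female-labelled and −0.19 in the male-labelled section. Oxidative stress genes were at 0.090, −0.069 and −0.0084 in the same order, endothelial genes at −0.26, 0.16 and 0.013, and mural genes at −0.10, 0.30 and 0.063. Erythroid genes were at −0.18, 2.03 and 0.75. In the male-labelled section 623 spots with counts carry no tissue mark and were left out of the comparisons. Pooled over them Timp1 was at 2728 CPM against 4.74 CPM in the control, and Nppa at 9010 CPM against 389 CPM. In the IZ of the same section Timp1 was at 2075 CPM and Nppa at 10118 CPM. Steps were counted to marked IZ spots only, so remote spots of this section can lie nearer to unmarked spots than their steps say. The effect on its remote zone and distances was not tested.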

How the results depend on the processing

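The count of genes at least 2-fold higher, 158, was 398 with a mean of at least 5 CPM, 79 with at least 50 CPM and 59 beyond 8 steps from the IZ. Leaving out 1 infarcted section gave 164 to 220 higher and 7 to 26 lower genes, since fewer sections have to agree, with 26 lower without the 3 dpi section and 12 without the male-labelled section. The count of lower genes, 5, was 2 over all UMIs, 11 with TMM scaling, 9 with median-of-ratios scaling, 8 with the low-share limit at 0.4, 17 with at least 5 CPM, 3 with at least 50 CPM and 3 beyond 8 steps. The mean over sections of the list medians moved by more than the spread between sections for 57 of 589 values over the 31 lists with at least 5 members described, mitochondrially encoded genes left out, and for the lists that carry the main comparisons in these cases. Beyond 8 steps it was 0.84 for wall stress genes, 0.79 for matrix genes, 0.81 for macrophage genes, −0.24 for the citric acid cycle and −0.24 for the respiratory chain. With TMM and median-of-ratios scaling it was −0.50 and −0.48 for the citric acid cycle, −0.51 and −0.48 for the respiratory chain, and 0.83 and 0.85 for macrophage genes. It was −0.26 for the respiratory chain over all UMIs, 1.20 for wall stress genes at a limit of 0.4, and 0.84 for macrophage genes with the IZ profile subtracted by the infarct-restricted list, an alternative chosen after seeing the data. Among lists whose medians had 1 sign in 3 of 3 sections, directions turned for histocompatibility genes (−0.0875) and interferon-induced genes (−0.047) beyond 8 steps, for chaperones with TMM (−0.0415) and median-of-ratios scaling (−0.0194), and for energy buffers over all UMIs (0.00474), and the cause was not tested. The mitochondrial share differed from the control by a mean of −7.34 to 0.70 percentage points when 1 section was left out. For the 12 higher genes chosen by the size rule and the 5 genes at least 2-fold lower, 47 of 323 values under the alternatives moved by more than the spread between sections and 0 turned direction. For the 42 other described genes given with values or set against the IZ 107 of 798 moved and 0 turned, but of the 39 that went 1 way Dgat1 no longer did so with TMM scaling and by the mean of per-spot CPM, nor Bdh1 beyond 8 steps. The 22 remote spots beyond 12 steps in the female-labelled section limit what that distance can show. No paired analysis was possible because each section came from a different heart, and no test was run.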

Other observations

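The following genes are examples from lists that went both ways: genes matched by ribosomal protein symbols, which take in kinases such as Rps6ka3, with 23 of 86 higher and 10 lower in 3 of 3, muscle translation isoforms (2 and 1 of 4), glucocorticoid and metal response (4 and 5 of 11), oxidative stress response (6 and 6 of 19) and immediate early genes (7 and 2 of 14). Rpl3, the general form of a ribosomal protein, was at 232 CPM in the control and at 515, 529 and 546 CPM in the remote zones, while Rpl3l, its muscle form, was at 290.0 CPM and at 219, 147 and 107 CPM. Eef1a2, the muscle form of an elongation factor, did not go 1 way, at 229 CPM and at 590, 389 and 168 CPM. Mt2, a metallothionein, was at 21.6 CPM and at 107, 70.1 and 83.8 CPM, and Gpx3, a secreted glutathione peroxidase, at 218 CPM and at 485, 566 and 382 CPM. Txnip, an inhibitor of thioredoxin, was at 199 CPM and at 89.4, 145 and 127.3 CPM. Ccn2, a matricellular growth factor, was at 30.3 CPM and at 113, 214 and 156 CPM.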
